A study of Homo sapiens with 6 samples.

Results

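Messenger RNA levels of the dual-specificity MAP kinase phosphatases were examined in HEK293 cells treated with GSK-A1 or with its solvent. The family was taken as 10 genes, chosen by symbol: DUSP1, DUSP2, DUSP4 and DUSP5 (nuclear inducible), DUSP6, DUSP7 and DUSP9 (ERK cytoplasmic), and DUSP8, DUSP10 and DUSP16 (JNK/p38). Each symbol matched 1 of the 63140 genes of the deposited table. HEK293 is an established line of human embryonic kidney origin. The control group held 3 libraries from HEK293 cells given dimethyl sulfoxide (DMSO), and the treated group held 3 libraries from HEK293 cells given 100 nM GSK-A1, an inhibitor of the lipid kinase phosphatidylinositol 4-kinase alpha, each for 24 h. Replicates are labelled as biological, both groups are the same line with no genetic modification named, and the labels describe the treated cultures as confluent.

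MAP kinases (ERK, JNK and p38) are switched on by phosphorylation of a threonine and a tyrosine in their activation loop, and these phosphatases switch them off by removing both phosphates. The nuclear enzymes are mostly products of early response genes, so that a MAP kinase can raise the level of its own inhibitor. DUSP6, DUSP7 and DUSP9 hold ERK inactive in the cytoplasm, whereas DUSP8, DUSP10 and DUSP16 prefer JNK and p38. The comparison asked whether this layer of control differed between cells with the lipid kinase inhibited and control cells.

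The 250 bases before the RefSeq start are given for DUSP1 and DUSP8, which held a full cyclic AMP response element (CRE). They are also given for DUSP6 and DUSP7, a pair of one class with different fold changes. The DUSP6 window lies inside the gene as placed below (chr12:89347232-89353271). It precedes the RefSeq start only and does not show what lies in front of that longer form. The DUSP8 window does not abut the gene as placed below (chr11:1554044-1571920), since the RefSeq start used here lies upstream of it. Capitals mark motif matches. DUSP1 lies at chr5:172771196-172771445, DUSP8 at chr11:1572272-1572521, DUSP6 at chr12:89352502-89352751 and DUSP7 at chr3:52056572-52056821 of GRCh38.p14, all on the minus strand and printed 5′ to 3′ in the direction of transcription.
DUSP1: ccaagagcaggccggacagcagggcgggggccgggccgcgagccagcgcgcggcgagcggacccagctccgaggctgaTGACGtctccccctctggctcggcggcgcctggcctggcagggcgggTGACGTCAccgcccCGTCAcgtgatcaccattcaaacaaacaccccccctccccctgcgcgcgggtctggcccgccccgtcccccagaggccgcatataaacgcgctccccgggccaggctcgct
DUSP8: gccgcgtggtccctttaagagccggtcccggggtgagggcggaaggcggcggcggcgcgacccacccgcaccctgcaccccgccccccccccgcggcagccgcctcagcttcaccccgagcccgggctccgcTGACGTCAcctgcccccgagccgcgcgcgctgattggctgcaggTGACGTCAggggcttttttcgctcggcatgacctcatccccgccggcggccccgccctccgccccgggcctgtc
DUSP6: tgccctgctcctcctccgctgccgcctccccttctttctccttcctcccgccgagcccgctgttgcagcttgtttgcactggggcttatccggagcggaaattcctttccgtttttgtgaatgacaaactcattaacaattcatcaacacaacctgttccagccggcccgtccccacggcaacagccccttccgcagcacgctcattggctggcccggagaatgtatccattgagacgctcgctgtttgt
DUSP7: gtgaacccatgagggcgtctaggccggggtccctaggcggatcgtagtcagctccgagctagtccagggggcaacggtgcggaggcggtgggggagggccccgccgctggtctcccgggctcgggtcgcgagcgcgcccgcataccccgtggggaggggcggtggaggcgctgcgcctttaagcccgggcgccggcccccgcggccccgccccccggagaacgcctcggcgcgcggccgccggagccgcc

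Promoter windows were searched for 8 of the 10 genes. DUSP5 was not matched. Windows on chromosome 8, where DUSP4 lies, were left out of the search of members, so DUSP4 was not searched. They were kept in the shares over all windows. The motifs searched on both strands were the CRE TGACGTCA, its core TGACG (which the CRE contains), the AP-1 site TGANTCA, the ETS site CCGGAA, the EGR site GCGNGGGCG and the CArG box. The DUSP1 window held 1 CRE, starting 125 bases before the start, and 4 matches to the core, of which 2 were the CRE itself read on either strand. The DUSP8 window held 2 CREs, 118 and 74 bases before the RefSeq start, and so farther from the start of the gene as placed below. Of the 35116 RefSeq windows of the same length, 1.65% held a CRE and 21.2% held its core. Among the 8 matched genes, the EGR site was found in DUSP2 and DUSP16, against 8.41% of all windows. No AP-1, ETS or CArG letters were found in the windows of the 8 genes, against 6.57%, 14.5% and 1.16% of all windows. These are matches of letters in one window per start site and show no binding. For DUSP6, whose window lies inside the gene as placed below, the bases in front of that longer form were not searched.

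Total counts per library ranged from 33040178 to 47777233. Pearson correlations of log2 expression across genes were 0.997 among the DMSO libraries and between GSK-A1 replicates 1 and 3, and 0.995 and 0.994 for GSK-A1 replicate 2 with the other two, so that library stood somewhat apart. Expression is given in CPM, the counts scaled to adjusted library totals. Of 8 genes known to be transcribed in HEK293 cells, 7 passed the filter on low counts and NEFM, at 0.0604 to 0.381 CPM, did not. Of 10 markers of other cell types, 2 passed, the collagens COL1A1 and COL3A1. Mean COL3A1 was 9.69 CPM with DMSO and 5.50 with GSK-A1 (edgeR adjusted p = 3.55e-06). Mean COL1A1 was 6.81 and 6.11 CPM (edgeR adjusted p = 0.396), so the 2 did not move alike. The summed level of these 10 markers was 16.6 to 17.5 CPM with DMSO and 10.3 to 13.0 with GSK-A1. Most of that sum came from COL1A1 and COL3A1. Each other marker was at most 0.313 CPM, and HBB was at 0. Any part of this in the results was not tested. In bulk RNA, fewer cells of a kind and less RNA per cell cannot be told apart.

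Of the 10 phosphatase genes, 9 had enough counts to be tested, and 7 of those 9 were higher with GSK-A1 while none was lower. Across all 16754 genes tested, 22.9% were called in either direction (edgeR adjusted p under 0.05) with 12.0% called higher and 10.9% called lower. In the same 7 genes every GSK-A1 library lay above every DMSO library, a pattern seen in 20.2% of tested genes, against 20.4% in which every GSK-A1 library lay below every DMSO library. The median log2 fold change of the 9 was 0.42, against -0.01 for all tested genes. Over all genes 2007 were higher and 1828 lower, so 52.3% of calls were higher, which became 33.3% under upper-quartile factors and 63.9% with the GC trend removed. The phosphatase count was 7 higher and 0 lower under each of the 16 alternatives, including the fit without GSK-A1 replicate 2, DESeq2 and limma-voom, and 0 were lower at an unadjusted p under 0.05 in edgeR.

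**Figure D1:**
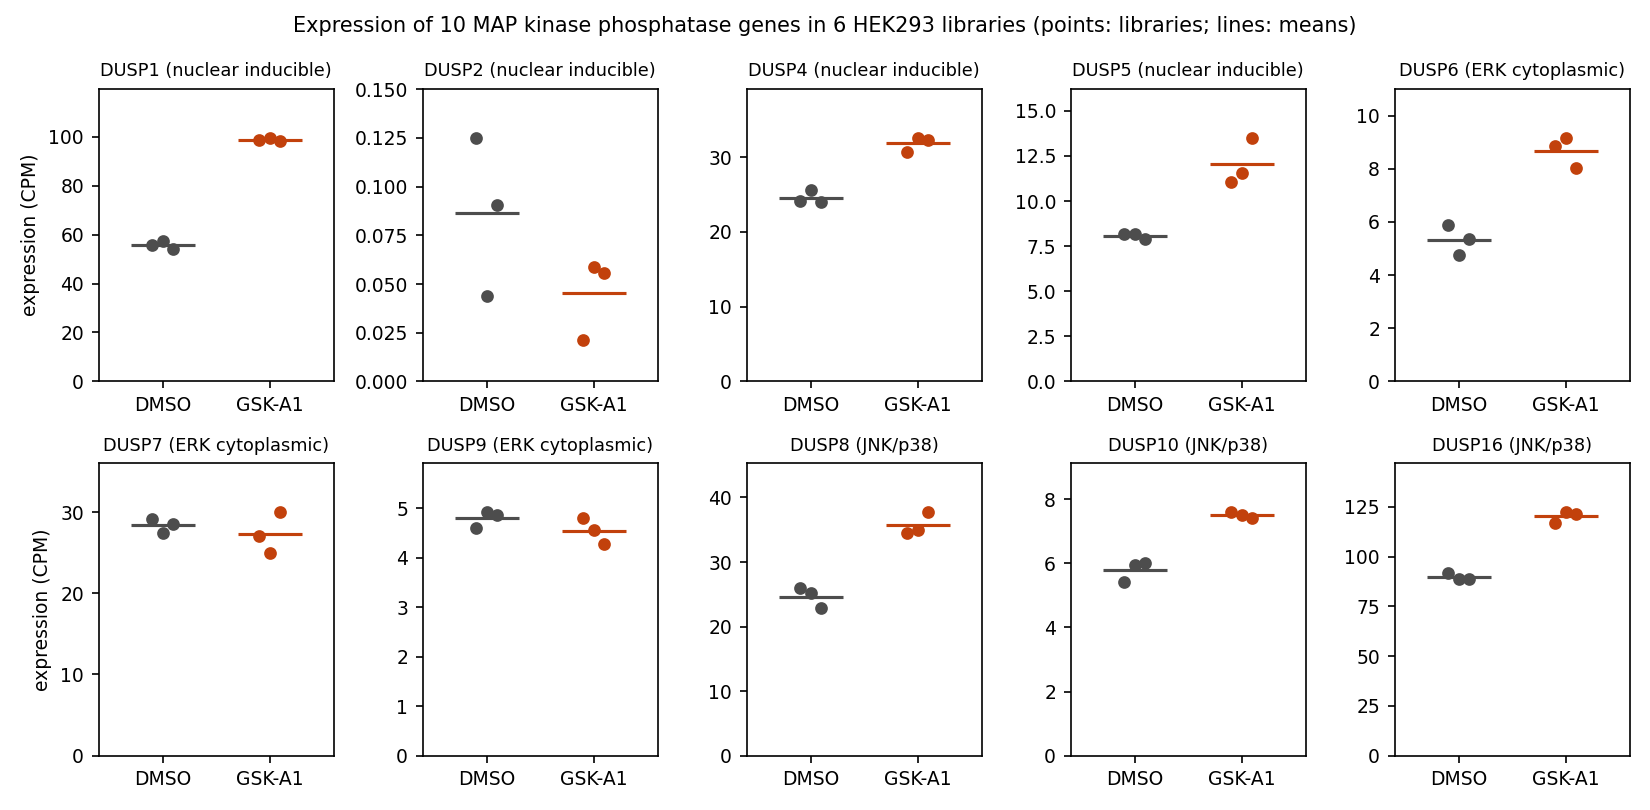
Expression of each phosphatase gene in CPM (vertical axis, from 0, with its own scale per panel) in the 3 DMSO and 3 GSK-A1 libraries; points are libraries and lines are group means. The groups are separate for DUSP1, DUSP4, DUSP5, DUSP6, DUSP8, DUSP10 and DUSP16, and overlap for DUSP2, DUSP7 and DUSP9.

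Among the nuclear inducible enzymes, the 3 that were tested rose. DUSP1 (ENSG00000120129, chr5:172768090-172771195) encodes the founding MAP kinase phosphatase, an early response product that acts on p38, JNK and ERK. Its level was 55.8, 57.3 and 54.0 CPM with DMSO (replicates 1, 2 and 3, the order used throughout) and 98.8, 99.6 and 98.2 CPM with GSK-A1. The groups were far apart compared with the spread inside them. The difference was 0.83 ± 0.04 on the log2 scale (SE; adjusted p by edgeR = 4.66e-10), a 1.77-fold rise and the largest of the 9 tested genes. This is the gene with the CRE and its cluster of core matches in the sequence above. No CRE or core match was found for DUSP6, DUSP10 and DUSP16, which were also called higher, or for DUSP7 and DUSP9, which were not. A link between these motifs and the fold changes was not tested.

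DUSP5 (ENSG00000138166, chr10:110497838-110511544) encodes a nuclear phosphatase selective for ERK. It stood at 8.20, 8.16 and 7.88 CPM with DMSO and at 11.1, 11.5 and 13.5 CPM with GSK-A1. GSK-A1 replicate 3 was the highest library, and the treated libraries varied more than the controls. The difference was 0.57 ± 0.08 on the log2 scale (SE; adjusted p by edgeR = 1.48e-04), and it was 0.48 without GSK-A1 replicate 3.

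DUSP4 (ENSG00000120875, chr8:29333064-29350668) encodes a nuclear phosphatase of ERK, JNK and p38. It stood at 24.2, 25.6 and 24.0 CPM with DMSO and at 30.7, 32.6 and 32.3 CPM with GSK-A1. The lowest treated library lay above the highest control. The difference was 0.37 ± 0.05 on the log2 scale (SE; adjusted p by edgeR = 1.03e-04), a 1.30-fold rise.

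DUSP2 (ENSG00000158050, chr2:96143166-96145440), best known from activated immune cells, was close to the limit of detection. It had 6, 2 and 3 counts in the DMSO libraries and 1, 2 and 2 counts in the GSK-A1 libraries. It did not pass the filter on low counts, the groups overlapped, and a difference was not detectable at this depth.

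The ERK cytoplasmic class was split. DUSP6 (ENSG00000139318, chr12:89347232-89353271), a phosphatase specific for ERK whose transcription is itself driven by ERK signalling, rose. It stood at 5.88, 4.75 and 5.37 CPM with DMSO and at 8.84, 9.17 and 8.02 CPM with GSK-A1. Every treated library lay above every control, although the level was low. The difference was 0.70 ± 0.09 on the log2 scale (SE; adjusted p by edgeR = 7.48e-05), a 1.63-fold rise. In GENCODE 29 a gene on the opposite strand, AC024909.2, covered 40.5% of the exonic length of DUSP6. It had 0 to 2 counts per library. Without the strand setting, these counts do not show whether reads in the overlap were kept for DUSP6. The effect on its level, also per length and in its class, was not tested.

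DUSP7 (ENSG00000164086, chr3:52048919-52056550), a cytoplasmic ERK phosphatase closely related to DUSP6, did not pass the test. It stood at 29.1, 27.5 and 28.5 CPM with DMSO and at 27.0, 24.9 and 30.0 CPM with GSK-A1. The GSK-A1 libraries lay on both sides of the controls. The difference was -0.05 ± 0.06 on the log2 scale (SE; adjusted p by edgeR = 0.572), with a 95% interval of -0.18 to 0.08. The sign turned with the GC trend removed (0.03), and leaving out GSK-A1 replicate 2 gave 0.0060.

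DUSP9 (ENSG00000130829, chrX:153642492-153651326), the third member of the class, did not pass either. It stood at 4.61, 4.92 and 4.86 CPM with DMSO and at 4.81, 4.57 and 4.27 CPM with GSK-A1. The groups overlapped. The difference was -0.07 ± 0.09 on the log2 scale (SE; adjusted p by edgeR = 0.641), with a 95% interval of -0.27 to 0.13 that lay below the interval for DUSP6, 0.50 to 0.90. With the GC trend removed the sign turned, to 0.03. The difference in fold change between DUSP6 and the other two was noticed in these values and was not tested.

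**Figure D2:**
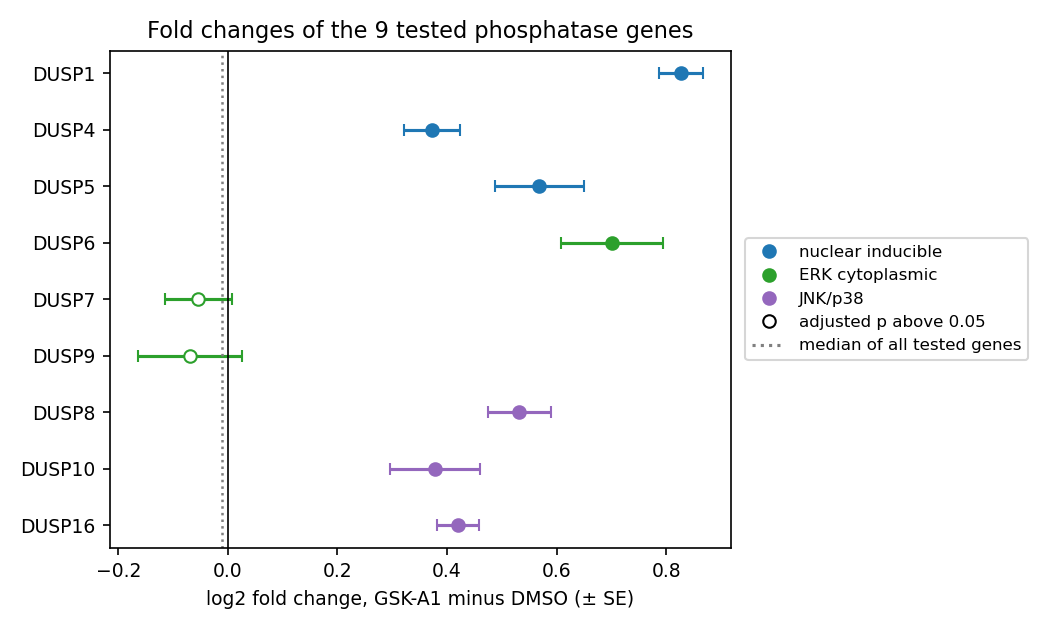
Log2 fold change of GSK-A1 minus DMSO (horizontal axis) for the 9 tested genes, with bars of 1 standard error; colours give the class, open points have an adjusted p above 0.05 and the dotted line is the median of all tested genes. DUSP7 and DUSP9, at -0.05 and -0.07, lie near that line, and the other genes lie between 0.37 and 0.83.

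The JNK/p38 class rose in each of its 3 members. DUSP8 (ENSG00000184545, chr11:1554044-1571920), a phosphatase of JNK and p38, stood at 25.9, 25.1 and 22.8 CPM with DMSO and at 34.5, 35.0 and 37.8 CPM with GSK-A1. DMSO replicate 3 was the lowest library and GSK-A1 replicate 3 the highest, and the groups did not overlap. The difference was 0.53 ± 0.06 on the log2 scale (SE; adjusted p by edgeR = 9.72e-06), a 1.45-fold rise. Pseudogenes of DUSP8 shared 1.94% of the 50-base stretches found in its longest transcript. The most abundant of these, DUSP8P5, stood at 1.67 to 2.78 CPM and differed by -0.27 on the log2 scale (edgeR adjusted p = 0.222). DUSP8 is the gene with the pair of CREs in the sequence above.

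DUSP16 (ENSG00000111266, chr12:12474210-12562383), which restrains JNK and shuttles between nucleus and cytoplasm, had the most counts of the family. It stood at 91.7, 88.8 and 89.0 CPM with DMSO and at 117, 122 and 121 CPM with GSK-A1. The values inside each group were close together and the groups were separate. The difference was 0.42 ± 0.04 on the log2 scale (SE; adjusted p by edgeR = 1.65e-06), a 1.34-fold rise.

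DUSP10 (ENSG00000143507, chr1:221701424-221742176), a phosphatase of p38 and JNK, stood at 5.42, 5.96 and 6.01 CPM with DMSO and at 7.60, 7.50 and 7.41 CPM with GSK-A1. The treated libraries were nearly equal and lay above the controls. The difference was 0.38 ± 0.08 on the log2 scale (SE; adjusted p by edgeR = 0.00365), a 1.30-fold rise. Its call was the weakest of the 7, with an edgeR adjusted p of 0.0308 and a log2 fold change of 0.33 without DMSO replicate 1.

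**Figure D3:**
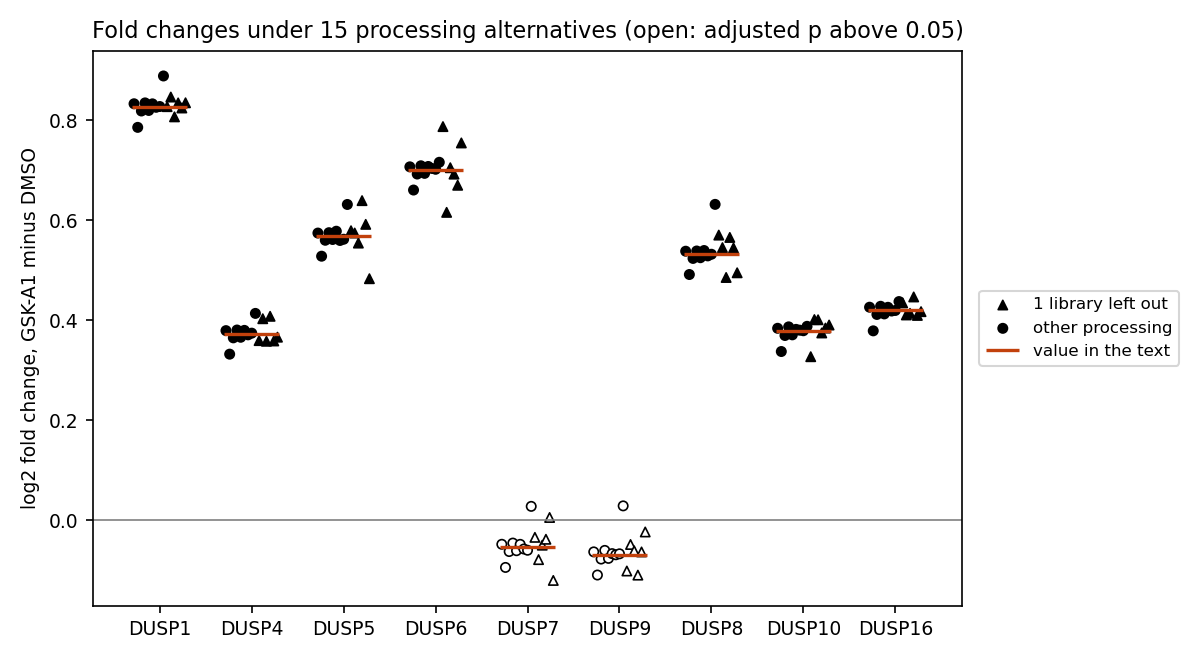
Log2 fold change of each tested gene (vertical axis) under 15 alternatives, with triangles for fits that left out 1 library, circles for other processing, filled symbols for an adjusted p under 0.05 and a line for the value in the text. The 7 called genes are filled and above 0 throughout, and DUSP7 and DUSP9 are drawn with open symbols between -0.12 and 0.03.

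Levels of different genes were then compared per kilobase of annotated exon, since a longer transcript yields more reads. With DMSO, DUSP1 was the highest at 27.6 ± 0.8 CPM per kilobase (SD, n = 3), followed by DUSP16 at 15.7 ± 0.3. DUSP8 (5.34 ± 0.35) and DUSP7 (5.02 ± 0.15) came next and their libraries overlapped. DUSP4 stood at 3.38 ± 0.12, DUSP5 at 3.09 ± 0.07, DUSP10 at 1.99 ± 0.11, DUSP9 at 1.73 ± 0.06 and DUSP6 at 1.15 ± 0.12, each without overlap with its neighbours in the order. DUSP2 was last at 0.045 ± 0.021. DUSP1 and DUSP16 thus stood well above the other family members on this scale in control cells.

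With GSK-A1 the same scale gave 49.0 ± 0.4 CPM per kilobase for DUSP1, 21.0 ± 0.5 for DUSP16 and 7.75 ± 0.38 for DUSP8. DUSP8 no longer overlapped with DUSP7, at 4.84 ± 0.45. DUSP5 (4.60 ± 0.49) and DUSP4 (4.39 ± 0.14) changed places in the order of means, but the libraries of DUSP7, DUSP5 and DUSP4 overlapped. DUSP6 (1.87 ± 0.13) came before DUSP9 (1.64 ± 0.10), with libraries that touched at 1.73 CPM per kilobase.

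**Figure D4:**
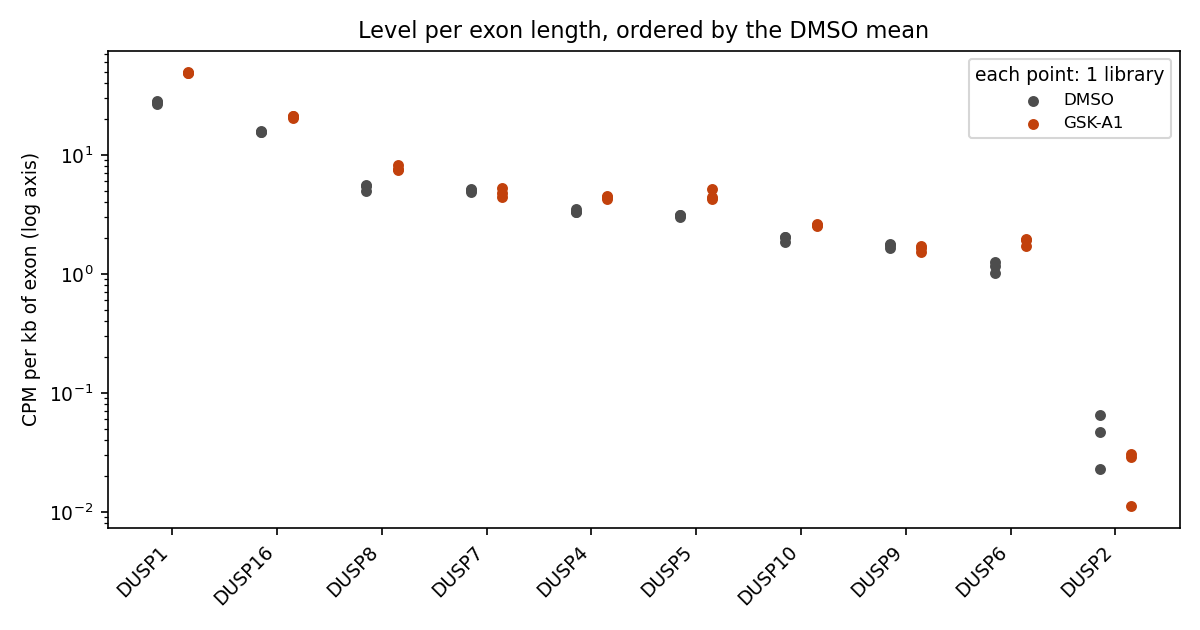
Level of each gene in CPM per kilobase of exon (vertical log axis) in every library, ordered by the DMSO mean; grey points are DMSO and orange points GSK-A1 libraries. The family spans from DUSP1, at 27.6 with DMSO and 49.0 with GSK-A1, down to DUSP2, below 0.1.

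Summed over the 10 genes, the level per length was 65.0 ± 1.2 CPM per kilobase in the controls and 97.7 ± 1.2 in the treated libraries (SD, n = 3). DUSP1 made up 42.4% ± 0.7 of that sum with DMSO and 50.1% ± 0.8 with GSK-A1. The nuclear inducible class went from 34.1 ± 1.0 to 58.0 ± 0.5 CPM per kilobase, which was 52.4% ± 0.8 and 59.4% ± 0.3 of the sum. The ERK cytoplasmic class stood at 7.90 ± 0.22 and 8.35 ± 0.28 CPM per kilobase, and its share was 12.2% ± 0.4 and then 8.55% ± 0.29. The JNK/p38 class went from 23.0 ± 0.5 to 31.3 ± 0.7 CPM per kilobase, while its share went from 35.4% ± 0.4 to 32.1% ± 0.3. The mean summed level was thus larger with GSK-A1 in each class, although the shares of these last 2 classes were smaller. Within the ERK cytoplasmic class only DUSP6 had a higher mean with GSK-A1, whereas the means of DUSP7 and DUSP9 were lower. These sums and shares describe the make-up of the family's mRNA and were not tested.

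Genes whose profile over the 6 libraries was most like that of each called phosphatase were found by the root mean square difference in log2 expression relative to the DMSO mean, among 13722 other genes. DUSP1 was nearest to NDRG1 (0.039), ATF3 (0.042) and SYNGR3 (0.058). DUSP16 was nearest to ID1 (0.010), FGF5 (0.028) and ZBTB21 (0.028), and DUSP4 to SLC25A25 (0.012), SLC4A7 (0.027) and ZFAND1 (0.030). DUSP10 was nearest to FBXO32 (0.023), TNFAIP1 (0.036) and TYW1B (0.037). DUSP5 and DUSP8 shared RARA-AS1 (0.059 and 0.054) and TMOD1 (0.078 and 0.060) among their nearest genes, joined by DUSP8 itself for DUSP5 (0.065) and by LBH for DUSP8 (0.057). DUSP6 was farthest from its nearest genes, CARMIL2 (0.089), TFRC (0.090) and ENSG00000257497 (0.091). These distances over 6 libraries of 2 groups are descriptions.

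The genes around the phosphatases in the pathway were read from lists chosen with earlier results of these data known. Of 17 transcriptional outputs and feedback genes of ERK, 13 were called higher and 0 lower, against 12.0% and 10.9% of all tested genes, and their median log2 fold change was 0.32. The early response factor EGR1 (log2 fold change 2.22 ± 0.06, SE; edgeR adjusted p = 4.77e-13), FOS, a subunit of AP-1 (1.87 ± 0.08), and the ETS factors ETV4 (1.72 ± 0.06) and ETV5 (1.04 ± 0.06) had the smallest p-values. Each of these log2 fold changes exceeded that of DUSP1.

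The phosphatases' own substrates and upstream kinases were read from 2 further lists. Of 10 MAP kinase genes, 1 was called higher and 1 lower, near the 22.9% called among all tested genes, and their median log2 fold change was -0.01. The higher call was lost without DMSO replicate 1 or 3 and became 2 without GSK-A1 replicate 2, and the lower call was lost without any one DMSO library or GSK-A1 replicate 1 and with DESeq2. Under upper-quartile factors the counts were 0 higher and 2 lower, and with the GC trend removed 2 higher and 0 lower. Of 7 MAP kinase kinases, 2 were called higher and 1 lower, against 12.0% and 10.9% of all tested genes. The lower one, MAP2K6, which activates p38, went from 13.0 ± 1.1 to 6.26 ± 0.64 CPM (SD, n = 3; log2 fold change -1.05 ± 0.09, SE; edgeR adjusted p = 7.14e-07). The 2 higher calls fell to 0 without any one DMSO library, without GSK-A1 replicate 1 and under upper-quartile factors, and 1 was left when GSK-A1 replicate 3 was dropped or with library totals only, whereas 4 were called higher with the GC trend removed. The lower count became 2 without GSK-A1 replicate 2 or under upper-quartile factors.

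Other phosphatases formed 3 lists. The deposited counts held 18 genes listed as atypical dual-specificity phosphatases, most of which lack the MAP kinase binding domain. Of these, 11 were tested, 2 were called higher and 1 lower, near the 22.9% called among all tested genes. The median log2 fold change of the 11 was 0.0099. DUSP14 (0.25 ± 0.04, SE; edgeR adjusted p = 7.64e-04) and DUSP3 (0.18 ± 0.04, edgeR adjusted p = 0.00413) were the higher ones. The lower count was 0 without DMSO replicate 1 or 2, without GSK-A1 replicate 1 or 3 and with DESeq2, and it was 2 when GSK-A1 replicate 2 was dropped or the GC trend removed. None of the 3 tyrosine phosphatases that bind MAP kinases (PTPN5, PTPN7 and PTPRR) passed the filter on low counts. Of 7 serine/threonine phosphatase genes linked to MAP kinases, 3 were called higher. PPP2CB (0.21 ± 0.04) and PPP2R2A (0.21 ± 0.04) are a catalytic and a regulatory subunit of PP2A. The other was PPM1A (0.14 ± 0.05, SE; edgeR adjusted p = 0.0348), which stayed called in 8 of 15 refits. The higher count ranged from 2 to 4 over the refits. PPP2R1A, the scaffold subunit of PP2A, was called lower (-0.12 ± 0.04, SE; edgeR adjusted p = 0.0239), so subunits of this enzyme went both ways. That call was lost without any one of the DMSO libraries (adjusted p up to 0.115) and with the GC trend removed (-0.07, adjusted p = 0.113). Over all tested genes 12.0% were called higher and 10.9% lower.

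**Figure D5:**
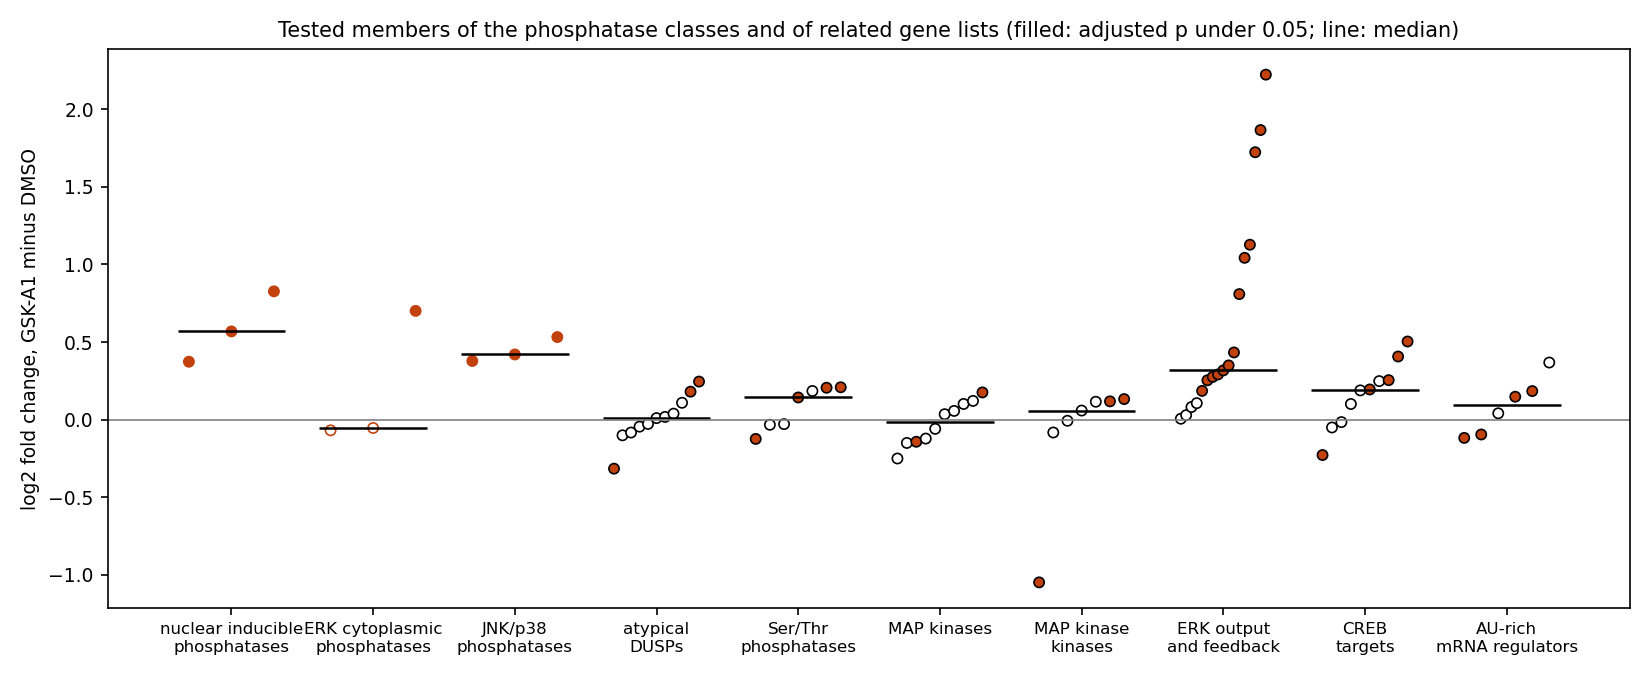
Log2 fold change (vertical axis) of every tested gene in the phosphatase classes and in related lists; filled points have an edgeR adjusted p under 0.05 and lines are medians. The nuclear inducible and JNK/p38 classes lie above 0 as a whole, with medians of 0.57 and 0.42, whereas the atypical phosphatases and the MAP kinases centre near 0.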

How the data were processed

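RNA-seq libraries from HEK293 cells, 3 per group, carried the same lane label. The deposited table holds raw counts per gene in whole numbers. The submitters' processing notes name cutadapt 5.1, STAR 2.7.11b, featureCounts (Subread 2.1.1), DESeq2 1.38.0 and GRCh38.p13; the annotation release, strand setting and filters are not given in the sources used here. Without the strand setting, reads in overlapping opposite-strand genes could have been shared or left uncounted. From the counts, edgeR 4.0.16 (R 4.3.3) was run with filterByExpr (minimum count 10, total 15), TMM factors and the robust quasi-likelihood F test, and p-values were adjusted by Benjamini-Hochberg over 16754 genes. Values are CPM on TMM-adjusted totals, with SD over 3 libraries; SE was obtained from the log2 coefficient and its F statistic, and 95% intervals use the test's degrees of freedom. Exon length, GC content and gene positions came from GENCODE 29 (GRCh38), and promoter sequences from RefSeq (GRCh38.p14). The code was tested on simulated counts for 16557 genes, of which 200 were changed, far fewer than were called in the data. Of changes of log2 size 1, 99% were recovered, and of size 0.5, 89%. Unchanged genes made up 7.39% of the calls, a larger share than the adjusted p threshold of 0.05 aims for.

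Members and lists were chosen with earlier results of these data known. Named genes were the 10 members, at most 4 called genes per list by p-value, and the 3 nearest profiles for each called member with at least 1 CPM. The alternatives were other factors, other filters, DESeq2 1.42.0, limma-voom (limma 3.58.1), a replicate block, a threshold of 0.01 and leaving out each library. Removal of the GC trend (loess span 0.3) was added after the data were seen, as were leave-out checks of the order of levels and all alternatives for the lists.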

Additional observations from a re-analysis of the deposited data

How the results depend on the processing

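The 7 phosphatases called higher stayed called, with the same sign, in each of the 15 refits and at the stricter threshold, where 7 were higher and 0 lower. DUSP7 and DUSP9 were not called in any refit (lowest edgeR or other adjusted p 0.167 and 0.430). Their sign was not fixed: DUSP7 ranged from -0.120 to 0.0060 when 1 library was left out (the upper value without GSK-A1 replicate 2), and removing the GC trend gave 0.028 for DUSP7 and 0.029 for DUSP9; the cause was not tested. The count over all genes, 3835, was 1871 at an adjusted p under 0.01 and 2163 to 4890 with 1 library left out (2163, 2213 and 2206 without DMSO replicates 1, 2 and 3). Only 4 of the 10 genes kept their place in the DMSO order when CPM was not divided by length, since DUSP1 and DUSP16, DUSP8 and DUSP7, and DUSP9 and DUSP6 changed places; the order held without any 1 DMSO library. With the replicate number as a block, 7 phosphatases were higher, 0 were lower and 4127 genes were called in all. Correlations of deviations between same-numbered libraries were small (0.011, 0.019 and 0.032), although every library but GSK-A1 replicate 1 correlated best with its own number. These values do not settle whether the cultures were paired. The replicate numbers are not stated to mark a shared culture, so the main fit had no block. Depth limits DUSP2, the only member not tested, with at most 6 counts per library.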

Other observations

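Targets of CREB, a factor that binds the CRE, formed a further list together with CRTC1, which is not a target and was its only lower call. Of its 10 genes, 4 were called higher and 1 lower, against 12.0% and 10.9% of all tested genes, and the median log2 fold change was 0.19. NR4A1, an early response nuclear receptor, went from 12.7 ± 0.3 to 17.9 ± 2.1 CPM (SD, n = 3; log2 fold change 0.50 ± 0.08, SE; edgeR adjusted p = 3.18e-04). CREM, a CRE-binding factor itself, rose by 0.19 ± 0.05 (edgeR adjusted p = 0.00586), and CRTC1, a coactivator of CREB, fell by 0.23 on the log2 scale (SE 0.06; edgeR adjusted p = 0.00750). The 4 higher calls became 2 without DMSO replicate 2 or 3 or GSK-A1 replicate 1, under upper-quartile factors and with DESeq2.

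Several phosphatase mRNAs, DUSP1 among them, carry AU-rich elements that bind regulators of mRNA decay. Of 6 such regulators, 2 were called higher, ZFP36L1 (log2 fold change 0.18) and ZFP36L2 (0.15), and 2 lower, HNRNPD (-0.12) and KHSRP (-0.10), against 12.0% and 10.9% of all tested genes. The higher count was 0 without DMSO replicate 1 or 3 and under upper-quartile factors, and 1 without DMSO replicate 2 or GSK-A1 replicate 3. The lower count was 0 when any library other than GSK-A1 replicate 2 was left out, and 1 under RLE factors, with no filter, with DESeq2 or with the GC trend removed.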
